A study of Mus musculus with 16 samples.

Results

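The microRNA (miRNA) content of bone marrow dendritic cells that had received quercetin and then lipopolysaccharide (LPS) was compared with that of untreated cells. The 4 quercetin plus LPS libraries and the 4 control libraries were set against each other, 8 of the 16 small RNA libraries of the series. The question was which miRNAs stood at, above or below the untreated level once both treatments had been given. Cells came from tibiae and femurs of wild-type C57BL/6 mice, male where the labels give a sex. Mice 1 to 3 were 8 weeks old and mouse 4 was 7 weeks old. Red cells were lysed before plating in every group. Control cells were not stimulated. Treated cells received 25 µM quercetin aglycone, a flavonol of many plant foods, on day 5 and again on day 7, then 1 µg/mL LPS on day 8 for 6 h. The 2 single treatments (LPS only and quercetin only, same doses and days) are used below for side-by-side values. Each number from 1 to 4 marks a mouse, so every group holds 1 library per mouse. The cells are a bulk culture, in which fewer cells of a type and less RNA per cell cannot be told apart.

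A miRNA is cut from a hairpin precursor, and a strand of the hairpin, the guide, is loaded into an Argonaute protein, where bases 2 to 8 (the seed) pair with target mRNAs that are then repressed. The other arm, the passenger, is usually degraded, so its level follows recent transcription of the hairpin more closely than that of the long-lived guide. In dendritic cells, Toll-like receptor 4 recognises LPS and switches on a set of miRNA genes, among them miR-155, which promotes inflammatory activation, and miR-146a, which dampens the receptor's adaptor proteins. Quercetin is known as an antioxidant flavonoid with anti-inflammatory activity in such cells.

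The mature sequences below are those on which the results turn, from RefSeq (build GRCm38.p6), 5′ to 3′ with the seed in capitals. Of the 568 miRNAs tested, 458 matched a single RefSeq sequence by name. The first pair fell together with 1 seed, and their hairpins lie next to each other on the plus strand of chromosome 11 (chr11:75173388-75173478 for miR-212 and chr11:75173682-75173747 for miR-132), in an intron of the noncoding gene 1700016P03Rik.
miR-132-3p: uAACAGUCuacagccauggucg
miR-212-3p: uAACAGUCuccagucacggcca
The 2 erythroid miRNAs below rose and also come from 1 stretch, chr11:78073005-78073070 for miR-144 and chr11:78073170-78073241 for miR-451a on the plus strand, outside other annotated genes on that strand.
miR-144-3p: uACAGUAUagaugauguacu
miR-451a: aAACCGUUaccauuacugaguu
In the next pair, again with 1 seed, miR-215-5p rose and miR-192-5p did not pass the test. The hairpin of miR-215 is at chr1:185313581-185313692, in an exon of the antisense transcript 2010103J01Rik, and that of miR-192 at chr19:6264844-6264932, outside other genes on its strand.
miR-215-5p: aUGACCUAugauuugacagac
miR-192-5p: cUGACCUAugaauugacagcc
Both arms of miR-155 (chr16:84714140-84714204, an exon of Mir155hg) and the guide arms of miR-146a and miR-146b, which share a seed, are the Toll-like receptor miRNAs at issue.
miR-155-5p: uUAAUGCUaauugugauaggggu
miR-155-3p: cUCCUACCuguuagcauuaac
miR-146a-5p: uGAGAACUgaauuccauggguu
miR-146b-5p: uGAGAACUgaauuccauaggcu
The arms of miR-27a (chr8:84208672-84208758) are shown because both were called lower, along with other arms of its cluster. The call of miR-27a-3p was lost under 20 of 23 alternatives. The miR-34b and miR-34c arms are shown because both fell with 1 seed.
miR-27a-5p: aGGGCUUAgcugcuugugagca
miR-27a-3p: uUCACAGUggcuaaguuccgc
miR-34b-3p: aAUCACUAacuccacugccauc
miR-34c-3p: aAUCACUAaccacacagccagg
The remaining sequences are of miRNAs with large changes and seeds that no sequence above has.
miR-138-5p: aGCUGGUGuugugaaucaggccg
miR-342-5p: aGGGGUGCuaucugugauugag
miR-203-3p: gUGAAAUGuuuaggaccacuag
miR-129-5p: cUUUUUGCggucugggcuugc

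Total counts were 8668512 to 12535228 per control library and 6459654 to 9041030 per quercetin plus LPS library (exact permutation p = 0.0571, two-sided, 4 against 4, where the smallest possible is 0.0286). Levels are counts scaled to a common library total with TMM factors by edgeR (CPM), and 568 of 1372 names passed its low-count filter. Libraries of the treated group differed among themselves along GC content. As a measure, the 458 miRNAs with a sequence were cut by GC content into 3 classes, each library's levels were compared with the control mean, and the median log2 difference of the GC-poorest class was subtracted from that of the GC-richest. This GC tilt was -1.31 and -2.01 in quercetin plus LPS libraries 1 and 4, and -0.42 and 0.09 in libraries 2 and 3. Control libraries lay between -0.44 and 0.40, LPS libraries between -0.69 and 0.31, and quercetin libraries between -0.53 and 0.24. Treated libraries 1 and 4 thus held less of the GC-rich miRNAs, relative to the GC-poor, than any control. Counts, and several of the results below, are therefore also given without libraries 1 and 4 of the treated group and with the tilt as a covariate, both chosen after the data were seen. In 2 pairs of neighbouring rows the deposited counts look exchanged in all libraries with quercetin and in none without it, so the 4 names were left out. A weaker candidate, miR-702-3p with miR-190b-5p, was kept, and miR-190b-5p (1.28 ± 0.36, adjusted p = 0.02) is among the rises counted below. That call was lost with only the 8 libraries compared, without all libraries of mouse 4 and without treated libraries 1 and 4. It was also lost in both fits with the GC tilt as covariate (adjusted p 0.0559 to 0.248 over these settings). A split of rows in the processing and the quercetin treatment itself cannot be told apart.

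**Figure D1:**
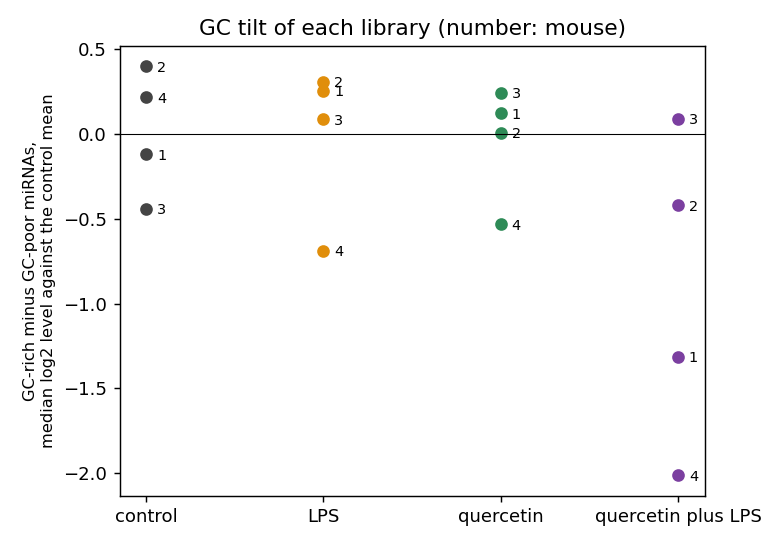
GC tilt of each of the 16 libraries: the median log2 level of the GC-richest class of miRNAs minus that of the GC-poorest class, each against the control mean (vertical axis, log2), by group (horizontal axis), with the mouse number beside each point. Quercetin plus LPS libraries 1 (-1.31) and 4 (-2.01) lie below all others, and libraries 2 and 3 lie in or near the control range.

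With both treatments 39 miRNAs were above the untreated level and 58 below it, by the edgeR quasi-likelihood test with Benjamini-Hochberg adjustment over the 568 (adjusted p under 0.05). These 97 calls are 17.1% of the miRNAs tested, 6.87% higher and 10.2% lower, and 186 had an unadjusted p under 0.05. They hold 95 distinct count profiles, since 2 pairs of names (miR-28a-5p and miR-28c, and the 5p arms of miR-486a and miR-486b) carry identical counts. Of the rises, 36 were higher in 4 of 4 mice, and of the falls 53 were lower in 4 of 4. Groups did not overlap for 102 miRNAs (18%), among them 31 of those that rose and 48 of those that fell. Groups that do not overlap differ the same way in 4 of 4 mice by necessity. As the calls come from the same libraries, these counts are no separate support for them. The smallest change called was 0.64 upward and -0.57 downward on the log2 scale.

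The untreated level could be placed more closely for part of the others. For 173 miRNAs (30.5%) the 95% interval of the log2 fold change lay wholly within 2-fold of control, and 172 of these had no call. The exception was miR-27a-3p, whose fall was the smallest called. A further 299 had neither a call nor so narrow an interval, so that their interval still holds a 2-fold difference in at least 1 direction. Those 299 had a median level of 4.49 CPM, against 52.1 CPM for the 173.

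The split of calls moved with scaling. It was 39 to 58 with TMM, 47 to 44 with library size, 50 to 54 with relative log expression and 62 to 43 with upper quartile scaling, as the median log2 fold change of all miRNAs went from -0.09 to 0.03, 0.02 and 0.12. DESeq2 gave 69 to 60, a filter of 10 CPM in 4 libraries 31 to 31. Rises numbered 26 without all libraries of mouse 4. Falls numbered 38 without control 2, 37 without treated library 2, 32 without treated library 4 and 37 without all libraries of mouse 4. Without treated libraries 1 and 4 the split was 51 to 41, and with the GC tilt as covariate 37 to 53. The first of these shared 61 of the 97 calls, the second 66. Under every one of 23 alternatives 27 of the 97 calls held. The rest did not all fail: miR-129-5p, miR-411-5p and miR-34c-3p, among others, had a value in 22 alternatives and kept their call in each. For the miRNAs described below single libraries whose omission ended a call are given beside it, as are losses without all libraries of mouse 4 and without treated libraries 1 and 4.

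**Figure D2:**
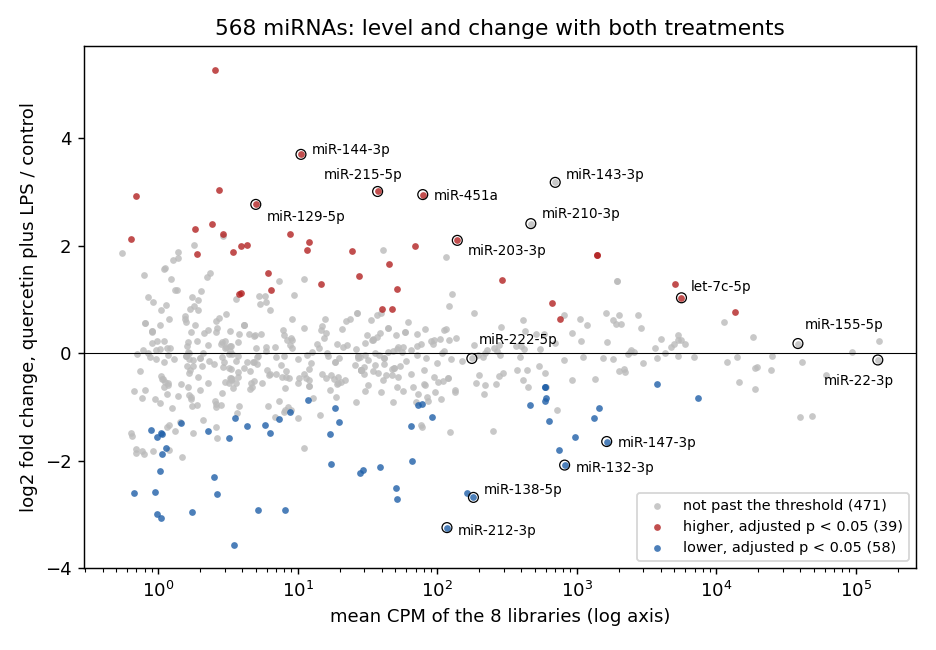
Each point is 1 of 568 miRNAs: mean CPM over the 8 libraries (horizontal, log axis) against the log2 fold change of quercetin plus LPS over control (vertical). Red points (39) rose and blue points (58) fell at adjusted p under 0.05. miR-212-3p (-3.25) and miR-144-3p (3.70) lie near the edges, while abundant miR-22-3p (-0.13) and miR-155-5p (0.18) lie near 0.

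Of the 26 tested names listed as induced by LPS in myeloid cells, 7 fell and none rose, with a median log2 fold change of -0.25 beside -0.09 over all 568. Over all 568, 10.2% fell and 6.87% rose. The members that fell were miR-125a-5p, miR-146b-3p, miR-147-3p and all 4 arms of the miR-212 and miR-132 hairpins. No arm of miR-222, miR-221, miR-21a, miR-146a or miR-155 passed the threshold. Without treated libraries 1 and 4, 7 of 27 tested members fell and none rose, and with the GC tilt as covariate 6 of 26. The list was drawn up with earlier results of these data known.

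miR-222-5p, the passenger arm of a hairpin of the miR-221/222 cluster, which restrains cell cycle inhibitors, was within 2-fold of its untreated level. Controls 1 to 4 held 135, 175, 238 and 186 CPM and treated libraries 195, 137, 170.3 and 183 CPM. The groups overlapped, with the treated libraries inside the control range. The log2 fold change was -0.10 ± 0.20 (SE), with a 95% interval of -0.53 to 0.33. Either treatment alone had moved it, and in opposite directions: LPS libraries held 372, 359, 392 and 510.3 CPM, quercetin libraries 59.4, 57.4, 59.0 and 56.9 CPM. Every LPS library lay above all controls and every quercetin library below them. The log2 fold changes against the same controls were 1.15 ± 0.21 with LPS (adjusted p = 0.0106) and -1.66 ± 0.21 with quercetin (adjusted p = 4.0e-05). Its guide arm miR-222-3p, chosen after its values were seen, stood at -0.16 ± 0.26 with both treatments (adjusted p = 0.721), 1.14 with LPS and -1.05 with quercetin.

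miR-155-3p, the arm of the hairpin that is mostly discarded, ended above its untreated mean without passing the test. Controls held 154, 214, 92.8 and 94.0 CPM and treated libraries 334, 131, 186 and 274 CPM. The groups overlapped, since treated library 2 lay under controls 1 and 2. The log2 fold change was 0.74 ± 0.34 (adjusted p = 0.139), with an interval of 0.03 to 1.45, higher in 3 of 4 mice. The call passed without control 2 or without treated library 2 (adjusted p 0.0364 to 0.0439), and with upper quartile scaling (adjusted p = 0.0474). LPS alone gave 606, 797, 389 and 431 CPM and quercetin alone 48.1, 38.3, 55.6 and 45.5 CPM, again above and below all controls, with log2 fold changes of 2.00 ± 0.35 (adjusted p = 0.0106) and -1.56 ± 0.34 (adjusted p = 0.00587).

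The guide miR-155-5p, the arm that acts on mRNAs, was within 2-fold of control. Its levels were 22196, 43209, 49322 and 29924 CPM in controls and 36701, 27521, 31129.8 and 68264 CPM in treated libraries, with treated library 4 the highest of the 8. The log2 fold change was 0.18 ± 0.30 (interval -0.46 to 0.82), and without all libraries of mouse 4 it was -0.27. miR-146a-5p held 1019.6, 3179.7, 1474 and 669 CPM in controls and 1999, 606, 704 and 2674 CPM with both treatments. Each group spanned more than its own mean, and the interval of -1.42 to 1.25 around -0.08 allows a change past 2-fold either way.

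The miR-146b hairpin, which carries the miR-146 seed, lay lower in its passenger arm. miR-146b-3p fell from 26.4, 30.3, 21.1 and 23.0 CPM in controls to 11.8, 8.25, 8.98 and 6.59 CPM, with no overlap (-1.50 ± 0.23, adjusted p = 2.0e-04). The guide miR-146b-5p, one of the most abundant miRNAs of these cells, held 44582, 98027, 95135 and 31077 CPM in controls and 28769.5, 12955, 14947 and 62288 CPM in treated libraries. Treated library 4 was above controls 1 and 4, the other treated libraries were below every control, and the difference of -1.18 ± 0.56 did not pass (adjusted p = 0.155). It passed without all libraries of mouse 4 (-2.07, adjusted p = 0.0408) and without treated libraries 1 and 4 (-2.07, adjusted p = 0.0396). miR-147-3p, induced by Toll-like receptors in macrophages and chosen here after its values were seen, fell from 3186, 2786, 1809.7 and 2169 to 523, 1237, 1016 and 405 CPM (-1.65 ± 0.30, adjusted p = 0.00104), and no treated library reached a control. It was among the calls that held under all 23 alternatives, as was miR-146b-3p. The fall of miR-125a-5p (-1.18 ± 0.36, adjusted p = 0.0305) was lost when control 2 or 3, or any single treated library, was left out (adjusted p 0.0619 to 0.17), and also without all libraries of mouse 4, without treated libraries 1 and 4 and with the GC tilt as covariate.

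The largest fall among miRNAs with a mean of at least 10 CPM was that of miR-212-3p, of the miR-132/212 pair, whose genes respond to the transcription factor CREB. miR-212-3p held 209, 300.1, 164 and 177 CPM in the 4 controls and 19.9, 28.5, 24.2 and 17.1 CPM in the 4 treated libraries. The lowest control was more than 5 times the highest treated library. This is a log2 fold change of -3.25 ± 0.29, a 9.49-fold fall (adjusted p = 2.5e-06). miR-132-3p, which shares its seed, went from 898, 1085, 2039.8 and 1283 to 289, 304, 339 and 319 CPM, with treated libraries closely grouped and control 3 the highest (-2.08 ± 0.26, adjusted p = 4.2e-05). The passenger arms fell too: miR-212-5p by 2.71 ± 0.37 and miR-132-5p by 2.17 ± 0.25 on the log2 scale (adjusted p = 8.7e-05 and 1.5e-05), both lower in 4 of 4 mice. LPS alone left these arms at 0.10 (miR-212-3p) and -0.07 (miR-132-3p), and quercetin alone at -2.78 and -1.85. All 4 calls held under every alternative, with miR-212-3p between -3.27 and -2.84.

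miR-138-5p, a miRNA best known from neurons, fell from 259.6, 189.6, 257 and 554 to 13.3, 92.6, 73.8 and 16.3 CPM. Treated libraries 1 and 4 were the lowest, and libraries 2 and 3 still lay below every control. The log2 fold change was -2.68 ± 0.55 (adjusted p = 0.00249), and over the alternatives it ran from -3.09 to -1.77. Its second hairpin arm miR-138-1-3p, chosen after its values were seen, fell from 9.18 ± 2.90 to 1.19 ± 0.813 CPM (SD, n = 4; -2.92 ± 0.41, adjusted p = 1.2e-04).

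Both arms of miR-342, which lies in an intron of Evl and is expressed in blood cells, were lower. miR-342-5p had 43.9, 74.7, 76.0 and 60.3 CPM in controls and 17.2, 14.4, 15.6 and 11.6 CPM in treated libraries, a log2 fold change of -2.11 ± 0.22 (adjusted p = 8.0e-06). The more abundant miR-342-3p went from 1129, 1439, 1854 and 1421 to 421, 505, 648 and 417 CPM (-1.55 ± 0.24, adjusted p = 2.0e-04). Groups did not overlap for either arm, and both calls held under all alternatives. Quercetin alone left miR-342-5p at -1.83 and miR-342-3p at -0.80.

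In the miR-23/27/24 clusters, 2 gene copies that arose by duplication, 5 of 11 members fell and none rose (median -1.02). Over all 568 miRNAs 10.2% fell. miR-27a-5p had 90.5, 96.3, 58.3 and 98.5 CPM in controls and 9.99, 24.6, 20.2 and 5.25 CPM in treated libraries, without overlap. It fell by 2.52 ± 0.38 on the log2 scale (adjusted p = 2.0e-04). Its guide miR-27a-3p went from 4810.1, 5582, 3897 and 3603 to 3173, 3322, 2775 and 2795 CPM (-0.57 ± 0.19, adjusted p = 0.0463), and that call was lost whichever of the 8 libraries was left out (adjusted p 0.0615 to 0.341). miR-23a-5p, another passenger arm, fell by 2.20 ± 0.39 from a level of 1.70 ± 0.176 CPM (SD, n = 4; adjusted p = 6.9e-04). At a mean of 0.36 CPM in treated libraries, miR-23a-5p passed the filter through groups where it was higher. The guide miR-23a-3p stood at -0.35 ± 0.26 (adjusted p = 0.384). miR-24-3p (-1.02 ± 0.31, adjusted p = 0.0304) and miR-24-1-5p (-1.09 ± 0.32, adjusted p = 0.0281) fell as well. The first call was lost without control 1, 2 or 3 or treated library 1, 2 or 4 (adjusted p 0.0854 to 0.159), the second when control 1, 2 or 3 or any single treated library was left out (0.0653 to 0.14). Without all libraries of mouse 4, miR-24-3p and miR-24-1-5p both had an adjusted p of 0.0679, and without treated libraries 1 and 4 they had 0.249 and 0.141. The call of miR-27a-3p was lost in these settings too, and under 20 of 23 alternatives in all. Among them were library size, relative log expression and upper quartile scaling, DESeq2 and the 10 CPM filter. Called members numbered 2 of 11 without treated libraries 1 and 4, and with the GC tilt as covariate 3.

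The miR-34 family, induced by p53, had 3 of 6 members lower and none higher (median -0.76), beside 10.2% of all 568 that fell. The count stayed at 3 with relative log expression scaling, DESeq2, voom and the replicate block. It was 1 with upper quartile scaling, without a low-count filter, with only the 8 libraries compared and without control 3. miR-34c-3p went from 8.20, 7.70, 14.1 and 7.53 to 4.22, 2.79, 3.52 and 2.69 CPM (-1.49 ± 0.25, adjusted p = 4.9e-04), with control 3 the highest and no overlap. miR-34b-3p, with the same seed, fell by 1.03 ± 0.25 on the log2 scale (adjusted p = 0.00808), a call lost without control 3 or treated library 2 (adjusted p 0.0537 to 0.0717). miR-34c-5p fell by 0.97 ± 0.29 (adjusted p = 0.0264), and its call was lost without control 1, 3 or 4 or treated library 1, 3 or 4 (adjusted p 0.0672 to 0.141). It was also lost without all libraries of mouse 4 (0.152) and without treated libraries 1 and 4 (-0.40, adjusted p = 0.398). miR-34a, the family member on another chromosome, had neither arm past the threshold.

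In the miR-181 family, regulators of lymphoid and myeloid signalling, 3 of 8 members fell and none rose, beside 10.2% of all 568 that fell. Falls numbered 1 with library size or upper quartile scaling, without a low-count filter and with only the 8 libraries compared, among other settings. With relative log expression or upper quartile scaling, the 10 CPM filter, DESeq2 or exchanged rows put back, 1 member was called higher. The passenger arm miR-181b-1-3p went from 44.2, 27.2, 57.7 and 56.5 to 5.25, 13.7, 7.55 and 12.9 CPM (-2.24 ± 0.34, adjusted p = 2.0e-04), and its call held under all alternatives. miR-181a-1-3p (-0.88 ± 0.24, adjusted p = 0.0182) and miR-181b-5p (-0.83 ± 0.25, adjusted p = 0.0295) fell by less. The first call was lost without control 1, 3 or 4 or treated library 1, 2 or 4 (adjusted p 0.0643 to 0.12), the second when control 3 or 4 or any single treated library was left out (0.0918 to 0.202). Without all libraries of mouse 4 the adjusted p was 0.147 for miR-181a-1-3p and 0.101 for miR-181b-5p, and without treated libraries 1 and 4 it was 0.229 and 0.19. The main guide miR-181a-5p stayed within 2-fold of control (0.02 ± 0.17, interval -0.34 to 0.38).

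Falls in the next 3 lists were few: 3 of 22, 1 of 14 and 2 of 44 members, beside 10.2% of all miRNAs tested, so their shares lie near or below the background. In the miR-17-92 cluster and its paralogues, which promote proliferation, those that fell were miR-20b-5p (-1.36 ± 0.27), miR-106a-5p (-1.21 ± 0.24) and miR-25-5p (-1.33 ± 0.44). The first pair, both of the X-linked paralogue, kept their calls in every alternative that gave them a value. miR-25-5p lost its call when any single control, or treated library 1, 2 or 4, was left out (adjusted p 0.052 to 0.182), and also without all libraries of mouse 4 (0.175) and without treated libraries 1 and 4 (-0.56, adjusted p = 0.41). In the miR-15/16 family miR-322-3p alone passed (-0.97 ± 0.19, adjusted p = 0.00178), and without treated libraries 1 and 4 it did not (adjusted p = 0.0551). Its cluster neighbour miR-351-5p went from 1054, 1821, 690.4 and 1108 to 297, 381, 524 and 139 CPM (-1.80 ± 0.45, adjusted p = 0.0111), and that call was lost without control 2 or treated library 4 (adjusted p 0.0506 to 0.0645), without treated libraries 1 and 4 (-1.20, adjusted p = 0.147) and with the GC tilt as covariate (-0.88, adjusted p = 0.0924). In the Sfmbt2 cluster, a rodent array of near-identical hairpins whose reads the counting could split, miR-466h-5p (-1.58) and miR-467f (-1.49) fell. miR-466h-5p was lost without control 1, 2 or 3 or treated library 2 or 3 (adjusted p 0.0781 to 0.114), and miR-467f without control 1 or 3 or treated library 1, 2 or 4 (0.0539 to 0.0925), without all libraries of mouse 4 (0.101) and without treated libraries 1 and 4 (0.189).

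Among the 12 largest falls were also 3 GC-rich miRNAs of little-known role. miR-3968 went from 168, 486, 266 and 206 to 81.8, 25.0, 48.4 and 29.1 CPM (-2.61 ± 0.42, adjusted p = 3.3e-04), and its call held under all alternatives. miR-3473d fell by 2.07 ± 0.43 and miR-1249-3p by 2.01 ± 0.47 on the log2 scale. Both calls were lost without treated libraries 1 and 4 (adjusted p = 0.051 and 0.0502).

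Among miRNAs with a mean of at least 10 CPM, the largest rises included those of erythroid miRNAs, which are produced at high level in red cell precursors. Of 7 erythroid names 5 were higher and none lower (median 1.82), and as miR-486a and miR-486b carry identical counts these are 4 of 5 distinct profiles. Over all 568 miRNAs 6.87% were higher. miR-451a held 24.9, 13.1, 16.7 and 17.5 CPM in controls and 216, 96.0, 75.5 and 170.5 CPM in treated libraries. The lowest treated library was 3 times the highest control. On the log2 scale miR-451a rose by 2.95 ± 0.33 (adjusted p = 1.5e-05). Its cluster partner miR-144-3p rose from 2.24, 0.616, 0.879 and 2.16 to 17.7, 28.0, 13.3 and 19.6 CPM (3.70 ± 0.68, adjusted p = 0.00104), and the other arm miR-144-5p by 3.04 ± 0.60 from 0.590 ± 0.210 CPM (SD, n = 4). At such control levels both arms of miR-144 passed the filter through groups where they were high. Their places among the 5 called names and the 4 distinct profiles are therefore no separate support. miR-486a-5p, or its copy, went from 569.8, 877, 378 and 649.8 to 2802, 2346, 2489 and 1075 CPM (1.82 ± 0.44, adjusted p = 0.00886), with treated library 4 the lowest of its group and still above all controls. Summed over the list, erythroid miRNAs made 777 to 1773 CPM in controls and 2343 to 5845 CPM in treated libraries. With treated libraries 1 and 4 left out, 5 of 7 names were called, as with the GC tilt as covariate. The labels record red cell lysis before plating, and whether the treated cultures held more red cell precursors was not tested.

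miR-215-5p, of a p53-responsive hairpin of the miR-192 family, rose. It held 8.43, 10.1, 7.79 and 6.84 CPM in controls and 63.9, 67.6, 46.3 and 88.5 CPM in treated libraries, with a wide gap between the groups. The log2 fold change of 3.01 ± 0.28 is an 8.03-fold rise (adjusted p = 2.5e-06). The other arm, miR-215-3p, so low in controls that it passed the filter through the groups where it was high, rose by 2.92 ± 0.76 (adjusted p = 0.0139) at levels of 0.0774, 0.103, 0.502 and 0 and 0.618, 1.86, 0.651 and 1.75 CPM, and its call was lost with the GC tilt as covariate (2.29, adjusted p = 0.0672). miR-192-5p, with the seed of miR-215-5p, stood at 0.12 ± 0.22 (interval -0.35 to 0.59). It held 5319, 4701, 4494 and 3804 CPM in controls and 5017, 4823, 4132 and 5898 CPM in treated libraries. The difference between the changes of miR-215-5p and miR-192-5p was not tested. Of 6 family members tested 2 rose and none fell, beside 6.87% of all 568 that rose. With only the 8 libraries compared 1 of 4 rose.

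The Dlk1-Dio3 cluster, an imprinted array on chromosome 12 that is read from the maternal copy, had 12 of its 54 names tested. Of these 4 rose and none fell (median 1.68), beside 6.87% of all 568 that rose. Without treated libraries 1 and 4 it was 6 of 14. miR-410-3p went from 4.10, 1.75, 2.64 and 3.98 to 21.5, 6.04, 10.9 and 20.05 CPM (2.22 ± 0.46, adjusted p = 0.00275). miR-369-3p, which lies in the same noncoding gene Mirg, went from 5.26, 1.44, 6.53 and 6.49 to 18.9, 12.1, 21.0 and 22.3 CPM (1.91 ± 0.43, adjusted p = 0.00533). In both cases every treated library was above every control. miR-411-5p rose from 1.70, 1.64, 1.76 and 1.73 to 5.87, 5.92, 5.21 and 10.8 CPM (2.01 ± 0.28), with treated library 4 apart from the other 3. miR-127-5p rose by 2.13 ± 0.68 at under 2 CPM in each of the 8 libraries, a call lost without control 2, 3 or 4 or treated library 2 or 3 (adjusted p 0.0644 to 0.0877) or without all libraries of mouse 4 (0.127). Summed over all 54 names the cluster made 19.7 to 31.9 CPM in controls and 51.0 to 101 CPM in treated libraries. Members at such levels passed the filter in part through the groups where they were high, so the 12 do not stand for the cluster.

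miR-129-5p, a tumour suppressor miRNA with 2 gene copies, was higher with each treatment and with both. Controls held 1.55, 1.13, 1.00 and 1.39 CPM, LPS libraries 5.48, 6.14, 7.53 and 3.68 CPM, quercetin libraries 11.1, 3.45, 9.53 and 4.08 CPM and treated libraries with both 8.85, 8.59, 13.02 and 4.57 CPM. Every library of the 3 treated groups was above every control. With control 3 at 1.00 CPM, miR-129-5p passed the filter through the groups where it was high, so this lack of overlap is no separate support. Against the same controls the log2 fold changes were 2.15 ± 0.42, 2.45 ± 0.42 and 2.77 ± 0.42 (adjusted p = 0.0179, 8.5e-04 and 2.0e-04).

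miR-203-3p, a miRNA of stratified epithelium that is also found in myeloid cells, rose with both treatments. It held 54.5, 48.6, 51.9 and 56.4 CPM in the closely grouped controls and 163, 123, 239 and 379 CPM in treated libraries (2.10 ± 0.32, adjusted p = 2.0e-04). LPS alone left it at 0.07 ± 0.31 and quercetin alone at 0.78 ± 0.31 (adjusted p = 1.00 and 0.107). Both treatments against quercetin alone gave 1.32 ± 0.31 (adjusted p = 0.126), so a difference between these groups was not shown. miR-455-5p rose from 10.8, 10.3, 8.67 and 11.7 to 21.7, 51.9, 39.4 and 41.8 CPM (1.90 ± 0.26, adjusted p = 8.7e-05), without overlap.

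miR-5121 and miR-677-5p rose by 1.99 ± 0.28 and 1.43 ± 0.29 on the log2 scale (adjusted p = 1.2e-04 and 0.00213). The GENCODE annotation of the same build places both hairpins on small nucleolar RNAs, Snord33 for miR-5121 (chr7:45126918-45126991) and a snoRNA in an intron of Atp5b for miR-677 (chr10:128085286-128085363). Their reads cannot be told apart from fragments of those RNAs. miR-7033-5p, in an intron of Pom121, rose from 2.94, 4.41, 6.66 and 4.50 to 25.3, 17.4, 23.4 and 11.2 CPM (2.07 ± 0.30, adjusted p = 1.3e-04). Below the 10 CPM minimum for naming were 2 large changes, chosen after their values were seen. miR-3074-5p rose from 0.309, 0, 0.126 and 0 to 4.84, 5.46, 6.25 and 3.36 CPM (5.27 ± 1.11, adjusted p = 0.00305), but 2 controls are at 0 and its fitted change is no bound. miR-6539 fell from 8.59, 5.24, 4.65 and 7.45 to 0.309, 0.929, 0.781 and 0.135 CPM (-3.56 ± 0.41, adjusted p = 1.5e-05), without overlap. Both miR-3074-5p and miR-6539 passed the filter through groups where they were high.

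Of 9 let-7 guides, which repress growth genes, let-7c-5p alone passed: 2166, 3533, 5261 and 3876 CPM in controls and 7875, 5806, 5630.0 and 10949 CPM in treated libraries, without overlap (1.03 ± 0.27, adjusted p = 0.0139). The call was lost without all libraries of mouse 4 (adjusted p = 0.109), without treated libraries 1 and 4 (0.0676) and with the GC tilt as covariate (0.136). let-7f-5p (-0.17 ± 0.27) and let-7i-5p (-0.07 ± 0.26), which share its seed, were within 2-fold of control. Guides called higher numbered 3 of 9 without control 3 or treated library 2, and 2 of 9 with DESeq2 or without treated library 3. The count stayed at 1 with library size, relative log expression and upper quartile scaling. In the miR-29 family, known for repressing collagens, the passenger arm miR-29a-5p rose from 25.7, 13.9, 25.5 and 21.2 to 31.1, 81.8, 77.9 and 82.3 CPM (1.66 ± 0.38, adjusted p = 0.00575) and no other of 7 members passed. Its call was lost without all libraries of mouse 4 (adjusted p = 0.0515). None of 11 miR-30 members passed. Beside the counts of these 3 families, 6.87% of all 568 miRNAs tested were higher. The most abundant of them, miR-30d-5p, stood at 0.30 ± 0.17 (interval -0.07 to 0.66) and passed without control 3 or treated library 2 (adjusted p 0.0312 to 0.0366).

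**Figure D3:**
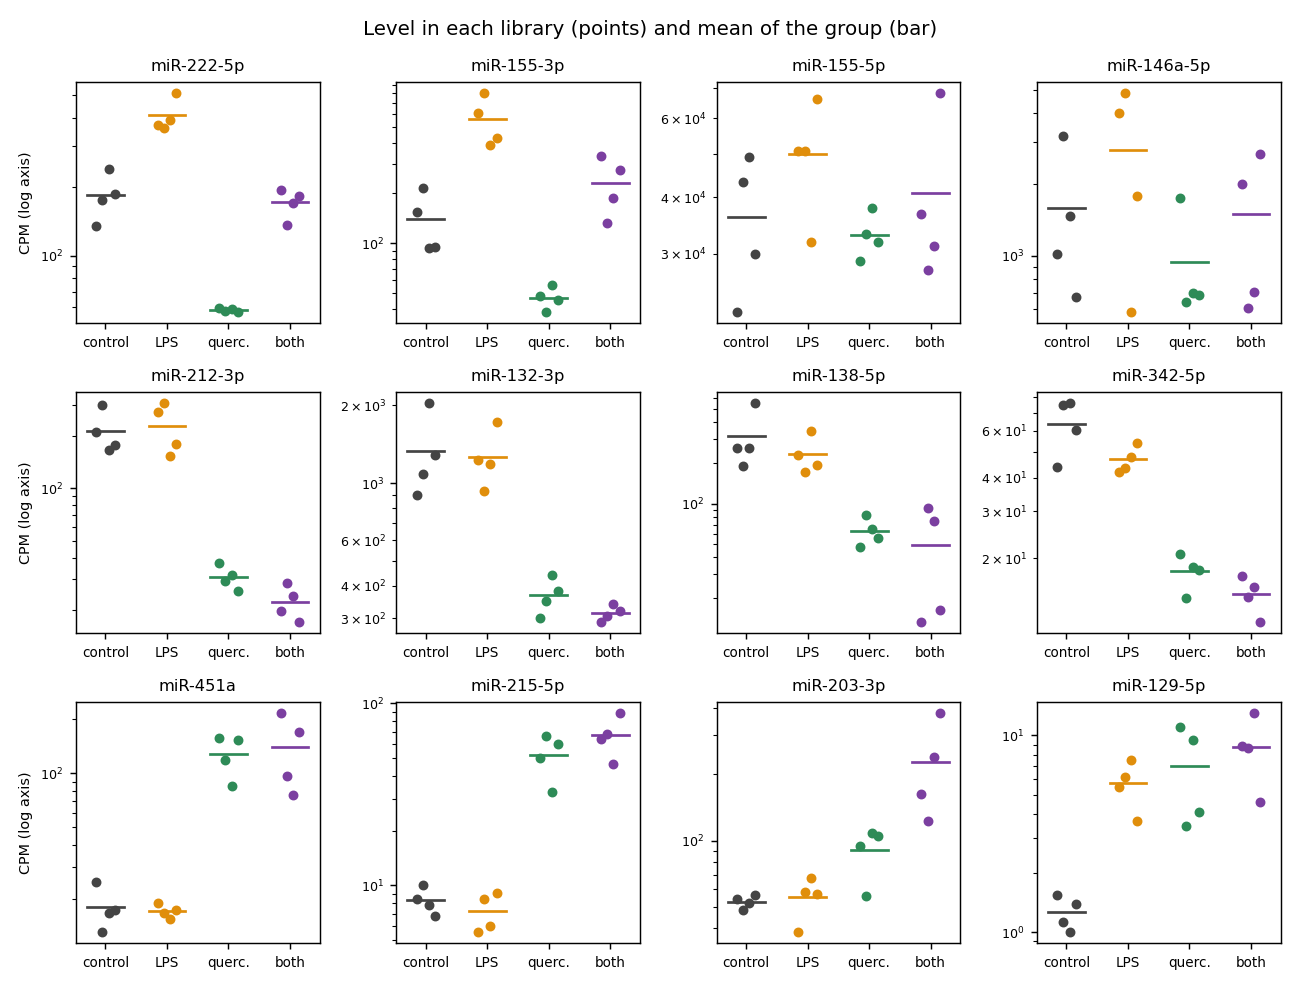
CPM (vertical, log axis) of 12 miRNAs in all 16 libraries, by group (horizontal), with points for libraries and bars for group means. miR-222-5p and miR-155-3p lie high with LPS and low with quercetin. With both treatments miR-222-5p lies inside the control range and miR-155-3p partly above it, while miR-212-3p, miR-132-3p, miR-138-5p and miR-342-5p are low, and miR-451a and miR-215-5p high, in both quercetin groups.

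Of the 10 most abundant miRNAs of control cells, 8 were within 2-fold of control with both treatments. miR-22-3p, which made 14.8% ± 2.40 of counts in controls and 14.8% ± 2.78 in treated libraries (SD, n = 4), had a log2 fold change of -0.13 ± 0.15 (interval -0.44 to 0.19). miR-21a-5p, an inhibitor of apoptosis regulators that inflammation induces, stood at 0.22 ± 0.20 (-0.21 to 0.65), and miR-27b-3p at -0.40 ± 0.24 (-0.91 to 0.11). miR-92a-3p (-0.84 to 0.21), let-7f-5p (-0.74 to 0.40) and the blood cell miRNA miR-142a-5p (-0.61 to 0.52) had intervals of the same kind, as did miR-181a-5p and miR-155-5p above. The other two of the 10 were miR-146b-5p, given above, and miR-191-5p. miR-191-5p held 50791, 103792, 34589.7 and 34021 CPM in controls and 30439.7, 20291, 24881 and 21927 CPM in treated libraries (-1.19 ± 0.45, adjusted p = 0.0735). The groups did not overlap, yet control 2 stood far above the other controls and the difference did not pass.

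**Figure D4:**
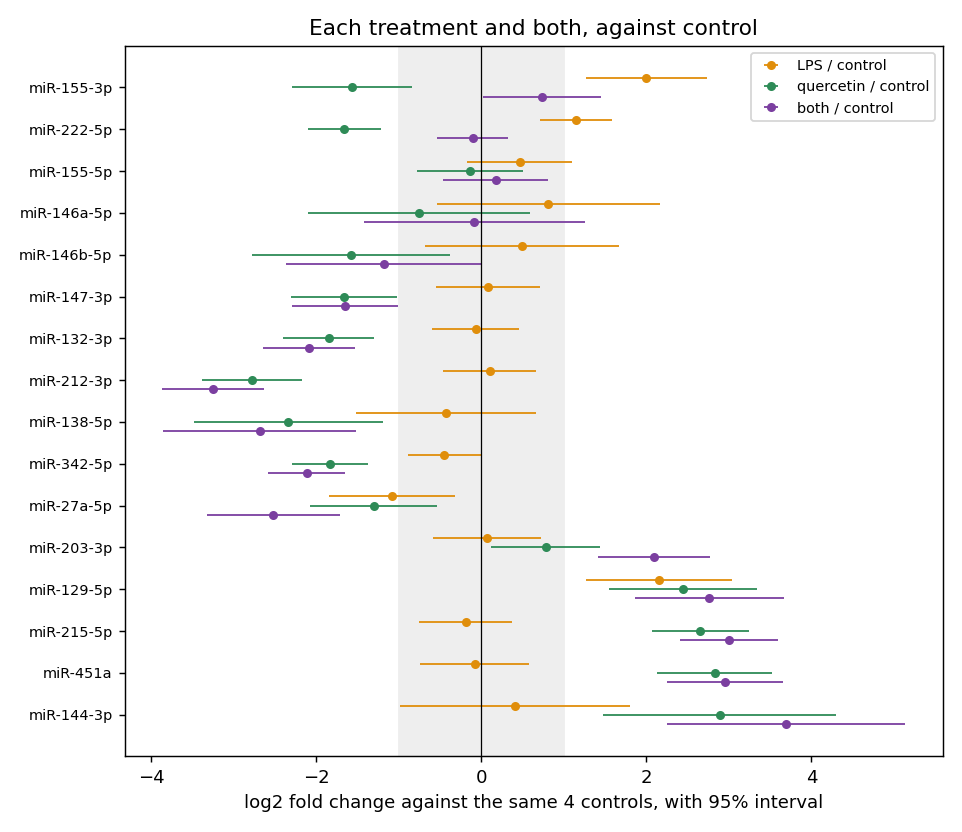
Log2 fold change against control (horizontal) with its 95% interval for 16 miRNAs after LPS, quercetin or both; the grey band marks 2-fold either way. The 3 comparisons share the same 4 control libraries. miR-222-5p runs from 1.15 with LPS and -1.66 with quercetin to -0.10 with both.

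Each single treatment was compared with the same controls, so the counts that follow are not independent of each other. LPS alone gave 3 calls of 568 (0.528%), all higher: miR-129-5p, miR-155-3p and miR-222-5p, with 26 at an unadjusted p under 0.05. Quercetin alone gave 39 higher and 51 lower (15.8%). Against LPS alone, both treatments gave 49 higher and 81 lower (22.9%). Against quercetin alone, both gave 2 higher and none lower (0.352%), with 41 at an unadjusted p under 0.05. These 2 were miR-222-5p (1.56 ± 0.21, adjusted p = 6.9e-04) and miR-155-3p (2.30 ± 0.35, adjusted p = 0.00168). Values for 3 of the large changes follow, quercetin alone first. miR-451a was at 2.83 with quercetin and 2.95 with both, miR-215-5p at 2.66 and 3.01, and miR-3968 at -2.58 and -2.61. miR-27a-5p was at -1.08 with LPS (adjusted p = 0.420), -1.30 with quercetin (adjusted p = 0.0221) and -2.52 with both.

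Calls were then set beside features of the sequences. Members that rose had a median GC content of 40.0% (34 with a sequence), those that fell 52.4% (49) and those without a call 50% (375). In the GC-poorest class 24 rose and 6 fell, in the GC-richest 3 rose and 23 fell, and the median log2 fold changes were 0.19 and -0.59. Without treated libraries 1 and 4 the poorest class had 20 rises and 12 falls and the richest 13 and 10, with medians of 0.21 and -0.0035. With LPS alone those medians were 0.02 and 0.01, and with quercetin alone -0.06 and 0.01. Median length was 22 bases for the miRNAs that rose, for those that fell and for those without a call.

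Of 46 seeds shared by at least 2 tested miRNAs, 2 had all their members called one way: AACAGUC of miR-132-3p and miR-212-3p, and AUCACUA of miR-34b-3p and miR-34c-3p. No seed had members called both ways. Among the 9 sequences with the let-7 seed GAGGUAG, 1 rose, and among the 6 with the miR-17 seed AAAGUGC, 2 fell. miR-181b-5p fell and miR-181a-5p, with the same seed ACAUUCA, did not pass.

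The arms of a hairpin are made from 1 transcript, and their ratio within a library does not depend on scaling. Both arms were tested for 150 hairpins. In 8 of these both arms were called the same way, in none in opposite ways, in 27 a single arm was called and in 115 neither. The arm lower in controls was called lower in 14 hairpins and higher in 8, the arm higher in controls in 14 and 7. In 92 of 150 hairpins the minor arm had the lower log2 fold change, with a median difference of -0.17 from the major arm. The log2 ratio of the 3p to the 5p arm was compared for 30 hairpins, those with a named miRNA and both arms tested. It went from 5.71 to 7.88 for miR-27a and from 10.46 to 12.23 for miR-23a, and from -8.53 to -11.07 for miR-486a and its copy. Each of these had an exact permutation p of 0.0286 (two-sided, n = 4 each), the smallest that 4 against 4 allows, and 0.214 after Benjamini-Hochberg adjustment over the 30. They were named because an arm was called between the same libraries, so these p-values are no separate support. For miR-27a the ratio was 8.30 and 9.04 in treated libraries 1 and 4, and 7.07 and 7.10 in libraries 2 and 3. With miR-23a-5p at 0.36 CPM and miR-486a-3p at 1.55 CPM in treated libraries, the other ratios rest on few reads. For miR-132 the ratio was 4.73 ± 0.53 in controls and 4.90 ± 0.46 with both treatments (SD, n = 4). For miR-215 it was -5.83 ± 1.47 and -5.84 ± 0.61, with a 3p arm near 0 counts in controls, so a difference could not be resolved.

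Markers of the labelled cells and of other cell types were compared last. Myeloid and blood cell markers (miR-223, miR-142a and miR-511) were detected in every group, summed to 20073 to 38854 CPM in controls and 22200 to 33648 CPM in treated libraries, and none of 6 was called. The mesenchymal miR-143-3p held 15.6, 84.2, 349 and 110.5 CPM in controls and 65.3, 4317, 202 and 471 CPM in treated libraries, where library 2 stands apart. The difference of 3.18 ± 1.23 did not pass (adjusted p = 0.0817) but did with DESeq2 (adjusted p = 0.0265), without a low-count filter (0.0409), without treated library 1 (adjusted p = 0.0437) and without treated libraries 1 and 4 (0.0352). Without treated library 2 it was 0.94 (adjusted p = 0.575), so its size rests on that library. The 10 mesenchymal names summed to 32.1 to 543 CPM in controls and 125 to 4594 CPM in treated libraries, and none of the 7 tested was called. At low levels, miR-145a-5p stood at 2.17 (1.11 to 4.73 CPM) and miR-145a-3p at 1.58 (0.567 to 1.66 CPM). The first passed under 2 of 22 alternatives and the second under 8 of 21 (adjusted p 0.0172 to 0.0445). Tested arms of miR-199a, miR-199b and miR-214 stood at 0.10 to 0.48. miR-210-3p, which hypoxia induces, held 192, 150.0, 37.1 and 216 CPM in controls and 135, 1160.5, 1771 and 93.1 CPM in treated libraries, where libraries 2 and 3 were high and libraries 1 and 4 in the control range. Its difference of 2.41 ± 0.81 did not pass (adjusted p = 0.052). It was 1.68 without treated library 3 (adjusted p = 0.133) and 1.52 with the mouse as a replicate block (adjusted p = 0.22), so its size rests in part on that library. It passed under 12 of 23 alternatives, among them those without treated library 1 or 4 (adjusted p 0.0146 to 0.0238), without both (0.00268) and with the GC tilt as covariate (4.9e-05).

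Endothelial miR-126a-5p (0.38 ± 0.37, adjusted p = 0.508) and lymphocyte miR-150-5p (-0.37 ± 0.31, adjusted p = 0.425) did not pass. The liver miRNA miR-122-5p held 3.79, 3.49, 13.4 and 4.33 CPM in controls and 20.6, 4.88, 14.5 and 24.4 CPM in treated libraries (1.37 ± 0.49, adjusted p = 0.0672), and passed under 9 of 23 alternatives. These include the mouse as a replicate block (1.37, adjusted p = 0.0318), 3 other scalings (0.0357 to 0.0445), DESeq2 (0.0155) and omission of control 3 or treated library 2 (0.00402 to 0.00841). It was 0.81 without treated libraries 1 and 4 (adjusted p = 0.343). Of 9 epithelial markers tested miR-203-3p alone was called, beside 6.87% of all 568 called higher. With upper quartile scaling, with DESeq2 and without treated library 2, 2 of 9 were called higher, against 1 with library size scaling. At low levels, miR-205-5p stood at 1.88 (mean 0.595 CPM in controls and 2.19 CPM in treated libraries) and was not called. The arms miR-205-3p and, of the liver miRNA, miR-122-3p were at 0 in both groups. None of the 6 miRNAs listed as falling after Toll-like receptor 4 stimulation was called (median -0.01). The part of other cell types in the rises was not tested.

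**Figure D5:**
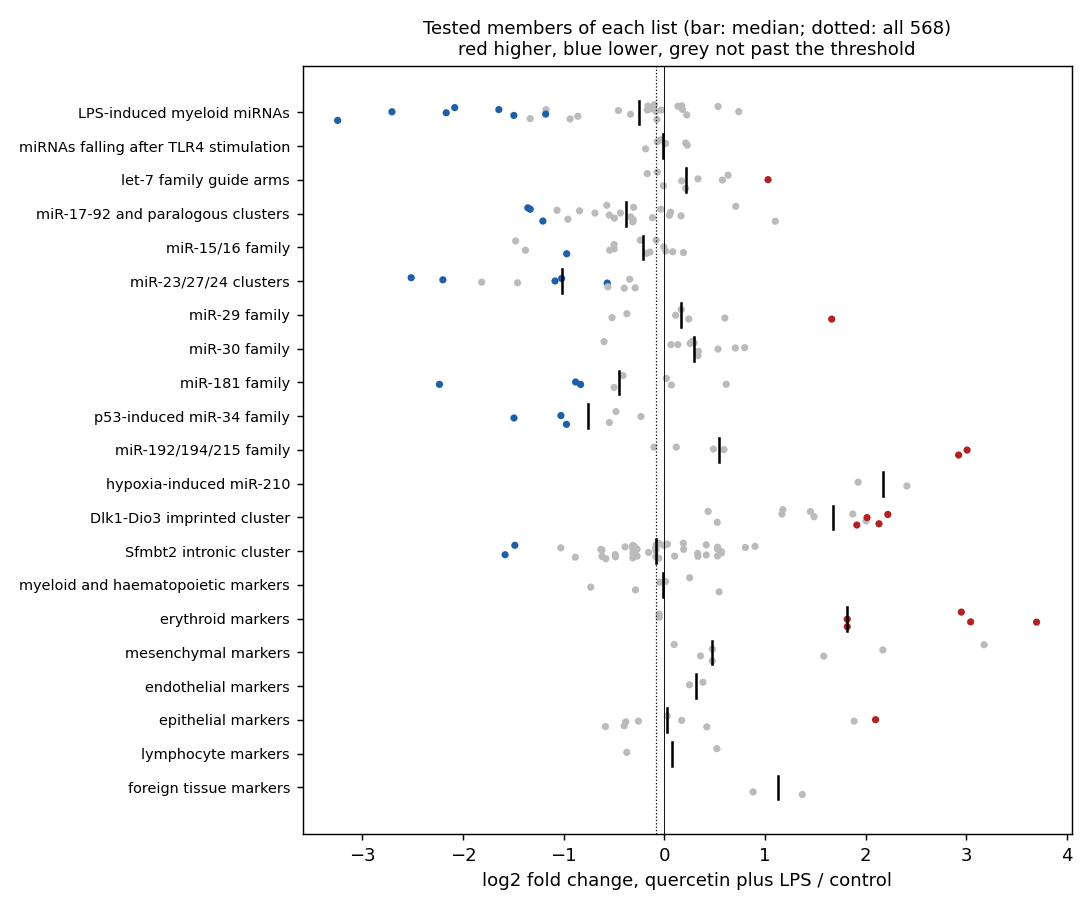
Log2 fold change of quercetin plus LPS over control (horizontal) for the tested members of 21 lists (rows): red rose, blue fell, grey did not pass; bars are list medians and the dotted line is the median of all 568 (-0.09). Erythroid (1.82) and Dlk1-Dio3 (1.68) medians lie to the right and the miR-23/27/24 median (-1.02) to the left.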

How the data were processed

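Small RNA libraries (TruSeq Small RNA) of 16 dendritic cell cultures were sequenced, and the authors deposited 1 table of whole-number read counts per mature miRNA name, not normalized. Per the submitters' processing notes, adapters were trimmed with cutadapt and the build was mm9; the versions, the aligner and the rule for reads that match several miRNAs are not given in the sources used here. Of 1381 rows, 1 with text among its counts was left out, 4 names on 2 rows each were summed, and 4 names in 2 pairs of rows that look exchanged were left out, which leaves 1372. In 15 sets of names the counts are identical.

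Counts of all 16 libraries were fitted with edgeR 4.0.16 (R 4.3.3) by group: filterByExpr, TMM scaling, quasi-likelihood test, Benjamini-Hochberg adjustment over 568 miRNAs, threshold 0.05. Standard errors are the log2 fold change over the square root of F. The script was tested on simulated data. Limma 3.58.1 (voom) and DESeq2 1.42.0 were alternatives, with other scalings, filters, library sets, a mouse term and leave-outs. Arm ratios used a pseudocount of 0.5 and exact permutation tests. Total counts of 6459654 to 12535228 per library limit precision for miRNAs near 1 CPM.

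Named miRNAs were 7 chosen by name, the 12 largest rises and 12 largest falls with a mean of at least 10 CPM, up to 4 called members of each list or its most abundant member, the 10 most abundant in controls, and the other arm of any of these where arm ratios were tested. Members and lists were chosen with earlier results of these data known. The numbers 1 to 4 mark mice per the labels, but same-numbered control and treated libraries did not deviate together (r of -0.04, 0.07, -0.47 and -0.32). Pairs of unlike number ran from -0.58 to 0.57, highest for control 3 with treated library 4 (0.57) and control 4 with treated library 3 (0.54). The cause was not tested. The fit does not use the pairing, while counts by mouse and the omission of mouse 4 rely on the numbers.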

Additional observations from a re-analysis of the deposited data

Results flagged for a closer look

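Within each group of 4 libraries, 1 library was set against the other 3 for the 65 named miRNAs, and 6 of 130 groups had a library apart by Dixon's 95% critical value. Chance alone marks about 1 in 20 groups. Control 3 stood above the other controls for miR-122-5p (13.4 CPM) and miR-34c-3p (14.1 CPM), and control 2 below them for miR-23a-5p (1.44 CPM). Among quercetin plus LPS libraries, library 2 stood above the rest for miR-143-3p (4317 CPM), library 4 above them for miR-411-5p (10.8 CPM), and library 1 below them for miR-29a-5p (31.1 CPM).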

How the results depend on the processing

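Rises numbered 62 with upper quartile scaling and 69 with DESeq2, against 39, and falls 31 with the 10 CPM filter and 33 with only the 8 libraries compared, against 58. Leaving out a library, or mouse 4, gave 26 to 55 rises, 32 to 58 falls and 133 to 180 miRNAs within 2-fold. With the mouse as a replicate block there were 43 rises and 69 falls. Among the named miRNAs the block changed the call of miR-122-5p (adjusted p = 0.0318) and no other. The causes were not tested.

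Signs that turned belonged to miRNAs without a call. With library size, RLE and upper quartile scaling, the 10 CPM filter, DESeq2 and exchanged rows put back, let-7i-5p was 0.022, 0.026, 0.16, 0.025, 0.026 and 0.047, miR-146a-5p 0.028, 0.040, 0.23, 0.032, 0.040 and 0.059, miR-222-5p 0.020, 0.011, 0.13, 0.0047, 0.011 and 0.014, and miR-142a-5p 0.067, 0.067, 0.20, 0.065, 0.067 and 0.062. miR-142a-5p was 0.0094 with voom and 0.010 with the 8 libraries. let-7f-5p was 0.044 with upper quartile scaling, and miR-22-3p was 9.6e-05 with library size and 0.10 with upper quartile scaling. Without treated libraries 1 and 4, miR-155-5p was -0.12 and miR-92a-3p 0.14. With the GC tilt as covariate, miR-155-5p was -0.31, miR-92a-3p 0.12, miR-181a-5p -0.022 and miR-21a-5p -0.082, and with the replicate block added the first pair was -0.34 and 0.091 and miR-21a-5p -0.038.

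Over the leave-outs, let-7f-5p ran from -0.33 to 0.20, let-7i-5p from -0.35 to 0.21, miR-142a-5p from -0.25 to 0.26, miR-146a-5p from -0.78 to 0.64, miR-150-5p from -0.40 to 0.052, miR-155-5p from -0.27 to 0.51, miR-22-3p from -0.15 to 0.13, miR-222-5p from -0.13 to 0.20 and miR-92a-3p from -0.36 to 0.085. Interval width went with level: miRNAs without a call had a median of 4.49 CPM where the interval reached past 2-fold, while falls and miRNAs without a call had similar levels (medians of 17.9 CPM for falls and 14.2 CPM for those without a call).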
